A study of Mus musculus with 8 samples.

Results

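The genes described here are 9 members of the tripartite motif (TRIM) family that respond to interferon in mouse cells: Trim25, Trim14, Trim56, Trim21, Trim12a, Trim12c, Trim30a, Trim30d and Trim34a. They were chosen by symbol, with earlier results of these data known. All 9 symbols are among the 27998 genes of the count tables, and a further 62 genes of the family in the tables serve for comparison. The cells came from the bone marrow of wildtype mice 12 to 14 weeks old and were lineage-negative c-Kit+ (LK) cells, to which additional haematopoietic stem cells (HSCs; LK, CD150+ CD48- CD34-) had been added. Control mice were given 100 µl of PBS, and the other groups received recombinant mouse IFNα under the skin (50000 IU for each 20 g of body weight) and were analysed 3, 24 or 72 h later. Each group had 4 mice, whose cells carried 4 hashtag antibodies and were pooled before sorting into a single library, so the time point and its library cannot be told apart. Single-cell RNA was counted as unique molecular identifiers (UMIs), summed here per mouse. Levels are given as UMIs of a gene per 1000000 UMIs (CPM) of the same mouse, or of its cells in a class. The totals cover the genes that passed edgeR's filter on low counts and were scaled by edgeR's normalization factors (TMM). Only for cell markers and untagged barcodes are CPM plain shares of all UMIs.

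TRIM proteins typically combine a RING finger, which makes many of them E3 ubiquitin ligases, with B-box and coiled-coil regions and often a carboxy-terminal PRY-SPRY region that binds the target. Type I interferon acts through its receptor and the kinases Jak1 and Tyk2, which lead to the assembly of the factor ISGF3. ISGF3 binds interferon-stimulated response elements (ISREs) in the promoters of its target genes, and many TRIM genes are among those targets. Some TRIM proteins amplify the sensing of viral nucleic acid, some restrict viruses directly, and some dampen inflammatory signalling.

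Of the 9 genes, 5 lie together on chromosome 7, where the family has multiplied by duplication. In GRCm38 coordinates, Trim34a lies at chr7:104244457-104262234 on the plus strand, and Trim12a (chr7:104299894-104315466), Trim12c (chr7:104338754-104353362), Trim30a (chr7:104409025-104465193) and Trim30d (chr7:104470014-104507849) follow on the minus strand. These 5 genes span 263393 bases, and the 9 protein-coding genes annotated in that span are the 5 members with Trim5, Trim34b, Trim30b and Trim30c. Trim21 (chr7:102557921-102565486, minus strand) is 1678970 bases away on the same chromosome. Trim25 lies at chr11:88999376-89020293 on the plus strand, Trim14 at chr4:46493781-46536141 and Trim56 at chr5:137105644-137116209, both on the minus strand.

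The promoter sequences are shown because 6 of the 8 members with a RefSeq promoter window held an ISRE-like match, GAAANNGAAA on either strand. A promoter window runs from 250 bases before to 50 after the start site (GRCm38.p6). Of all 27025 genes with a promoter window, 3.99% held a match, as did 3.44% of all 32851 windows. The matches of the members are in capitals within windows of 30 bases, each written 5′ to 3′ on the strand of its gene. A match on the other strand reads as the reverse complement. Positions of the matches are counted from 0 at the first transcribed base of the RefSeq entry. The windows lie at chr7:102565450-102565479 for Trim21, chr7:104244457-104244486 for Trim34a, chr7:104315466-104315495 for Trim12a, chr7:104353359-104353388 for Trim12c, chr7:104465210-104465239 for Trim30a and chr7:104507871-104507900 for Trim30d.
Trim21: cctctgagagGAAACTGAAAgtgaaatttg
Trim34a: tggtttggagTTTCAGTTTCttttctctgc
Trim12a: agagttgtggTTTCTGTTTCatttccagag
Trim12c: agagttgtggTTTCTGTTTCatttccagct
Trim30a: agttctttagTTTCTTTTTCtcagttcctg
Trim30d: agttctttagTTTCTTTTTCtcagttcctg
The match began at position 13 in Trim21, 10 in Trim34a, 10 in Trim12a, -29 in Trim12c, -36 in Trim30a and -41 in Trim30d. Trim21 held another match that overlaps the one shown, and the other start site of Trim30a, at which the match began at position 2, carried the same 10 letters. The windows of Trim25 and Trim56 held no match, and the table of promoters has no entry for Trim14. No member held the letters TTCNNNGAA of a GAS-like element, found in 9.55% of genes with a window and 8.30% of all windows. A match says only that these letters are present.

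For Trim30a (chr7:104465194-104465293), Trim30d (chr7:104507850-104507949) and Trim12c (chr7:104353350-104353449), whose match lies upstream, the 100 bases before the start site are shown with the ISRE-like match again in capitals, so that the Trim30 pair can be compared with each other and with a more distant promoter.
Trim30a: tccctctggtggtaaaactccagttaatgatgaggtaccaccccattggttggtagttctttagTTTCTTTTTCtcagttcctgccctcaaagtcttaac
Trim30d: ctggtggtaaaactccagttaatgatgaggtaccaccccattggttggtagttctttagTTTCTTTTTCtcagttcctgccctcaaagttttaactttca
Trim12c: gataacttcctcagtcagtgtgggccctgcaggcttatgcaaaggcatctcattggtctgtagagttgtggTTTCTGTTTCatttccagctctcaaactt
Within the 250 bases before the start site, Trim30a and Trim30d were identical at 92.2% of 245 bases aligned without gaps. Trim12a and Trim12c were identical at 81.9% of 210 such bases, which did not reach the ISRE-like match of either gene. The 3′ ends of the transcripts, from which this assay reads, share sequence as well. Of all 50-base words in the last 500 bases of the transcripts, 19.9% of those of Trim30a occurred elsewhere, all of them in Trim30d, and 16.9% of those of Trim30d occurred in another gene, nearly all in Trim30a. The shares were 22.2% for Trim34a (with Trim34b), 17.8% for Trim12c (mostly with Trim5) and 6.13% for Trim12a. The division of reads within these pairs is therefore uncertain. Trim14 overlaps Nans on the opposite strand over 9852 bases, and whether reads were counted by strand is not given in the sources used here. Nans had 100.5 CPM in control mice and 90.8 CPM at 3 h.

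After removal of hashtag multiplets, untagged barcodes and low-quality barcodes, 10046 cells remained, with 2474 control cells and 1661, 3462 and 2449 cells at 3, 24 and 72 h. The mice had 1102706 to 26446327 UMIs, with a median of 12087017. Control mouse 4 stood apart with 58 cells, against at least 330 in every other mouse, and its level of each member rests on 4 to 40 UMIs. The libraries share 9 to 69 barcodes in pairs, at most 2.81% of the smaller one. Kit (76.9 to 123 CPM) and Ptprc (55.3 to 76.1 CPM) were present in all 16 mice, as the sort requires. These and the marker sums that follow are plain shares of all UMIs, without TMM scaling. Summed markers of dendritic cells and mature neutrophils reached at most 6.63 and 3.37 CPM. Summed macrophage markers were 2.24 to 13.8 CPM. Summed B cell markers were 28.3 to 61.4 CPM and T or NK cell markers 290 to 622 CPM over the 16 mice. Of the 6 listed T or NK cell genes, Cd3e and Gzma were at 0 in all treated groups. Cd3d, Nkg7 and Klrd1 were detected in each of these groups, so 290 CPM or more of that list was present in treated mice too. Plasma cell markers reached 158 CPM in 1 control mouse and at most 2.18 CPM in treated mice. Summed HSC markers, which include Ly6a, were 119 to 188 CPM in control mice and 290 to 405 CPM at 3 h. The HSC-like share of cells was 17.0% in control and 32.1%, 24.4% and 29.7% at 3, 24 and 72 h, so levels over all cells move with cell makeup as well as with RNA per cell. In sums over all cells, fewer cells of a type and less RNA per cell cannot be told apart, and the part of the makeup in each result below was not tested other than by the values within classes.

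At 3 h after IFNα, all 9 TRIM genes rose in the whole compartment, from 2.21-fold for Trim25 to 15.3-fold for Trim30d, and for each of them every mouse at 3 h was above every control mouse, as for 16.2% of all genes tested. A gene was called when the adjusted p of edgeR's quasi-likelihood test (Benjamini-Hochberg over all genes) was under 0.05 and the log2 fold change was over 1 in size, and 5.22% of the 12042 genes tested were called higher at 3 h. The median log2 fold change of the 9 genes was 2.45, against -0.03 over all genes tested. Their summed level went from 147 ± 7.65 CPM (SD, n = 4 mice) in control to 1015 ± 60.9 CPM at 3 h, 225 ± 9.87 CPM at 24 h and 163 ± 7.08 CPM at 72 h. The chromosome 7 cluster showed the largest changes of the 9, and Trim25 and Trim56 showed the smallest. Among all 12042 genes ordered by log2 fold change at 3 h, Trim30d ranked 65, Trim30a 87 and Trim34a 101, while Trim56 ranked 538 and Trim25 549.

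**Figure D1:**
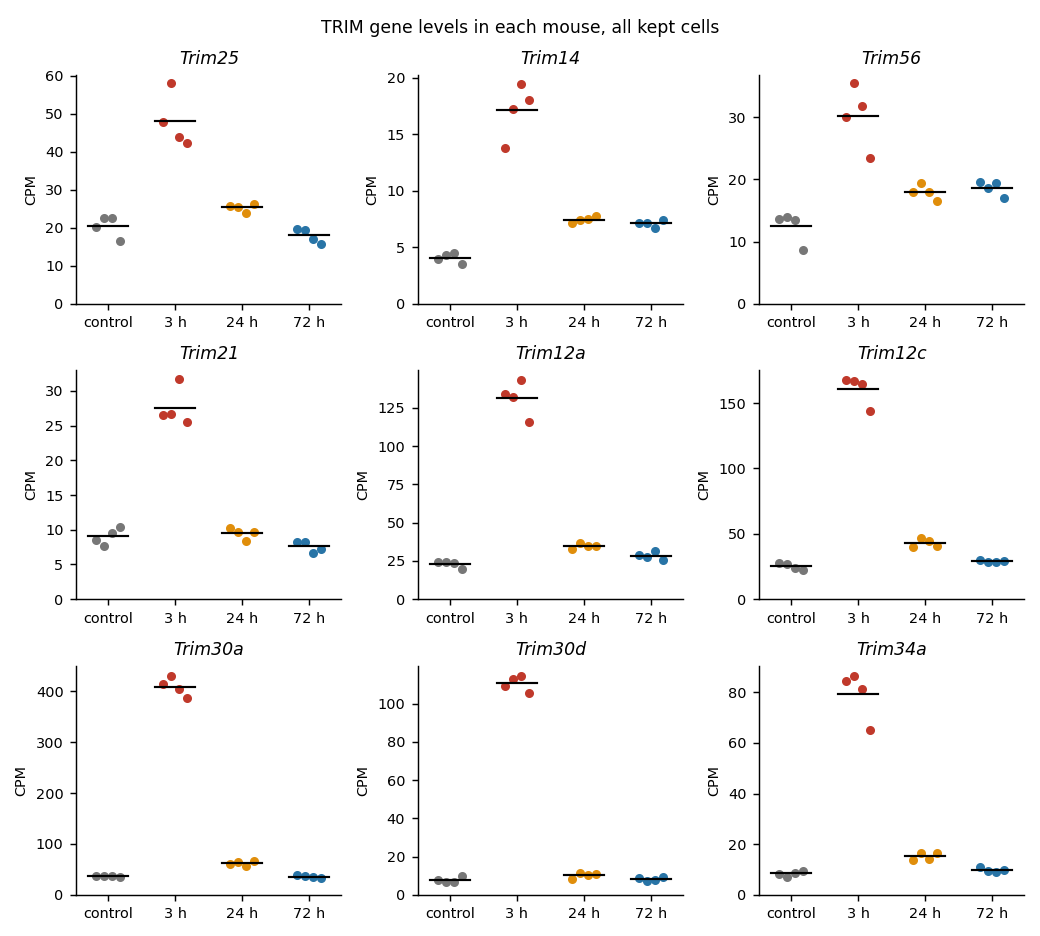
Level of each TRIM gene (CPM, linear axis from 0) in each of the 16 mice by group, summed over all kept cells, with points for mice and lines for group means. The 4 mice at 3 h lie above every control mouse for all 9 genes, and at 24 h this holds for 7 of the 9 genes, against 12.7% of all genes tested.

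Trim25 is an E3 ligase that promotes signalling by the RNA sensor RIG-I (Ddx58). Its level in control mice 1 to 4 was 20.3, 22.5, 22.6 and 16.5 CPM, and at 3 h it was 47.9, 58.2, 44.0 and 42.2 CPM. All 4 treated mice were higher than all controls, a log2 change of 1.15 ± 0.09 (SE; edgeR adjusted p = 7.26e-10). At 24 h the level was 25.6, 25.6, 23.8 and 26.3 CPM, still above the highest control, but by a log2 change of only 0.24 ± 0.09 (adjusted p = 0.043). At 72 h it was 19.6, 19.4, 17.1 and 15.7 CPM, which overlaps the controls, with a log2 change of -0.26 ± 0.09 (adjusted p = 0.0347).

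Trim14, an adaptor at mitochondria that acts with the RIG-I partner MAVS, rose more in fold than Trim25. Control mice had 3.99, 4.32, 4.47 and 3.48 CPM, and mice at 3 h had 13.8, 17.2, 19.5 and 18.03 CPM. The log2 change was 2.03 ± 0.11 (4.09-fold; adjusted p = 5.64e-13). At 24 h the mice had 7.12, 7.41, 7.46 and 7.74 CPM, and at 72 h 7.16, 7.18, 6.70 and 7.39 CPM. Both later groups lay entirely above the controls, with log2 changes of 0.81 ± 0.11 (adjusted p = 5.29e-06) and 0.75 ± 0.11 (adjusted p = 2.68e-05), so 25.8% of the 3 h rise in CPM was present at 24 h and 23.3% at 72 h. Within the 5 cell classes, the changes of Trim14 at 72 h were all positive, and none passed the test (log2 0.29 to 0.53, adjusted p = 0.303 to 0.808). The HSC-like class, which had the highest level of Trim14, made up a larger share of cells at 72 h than in control. The part of this shift in the level over all cells was not tested.

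Trim56, an E3 ligase known to act in the DNA-sensing pathway of cGAS and STING, followed a like course at a smaller scale. It had 13.7, 14.0, 13.5 and 8.70 CPM in control mice and 29.97, 35.5, 31.9 and 23.4 CPM at 3 h, a log2 change of 1.16 ± 0.10 (adjusted p = 4.58e-09). Mice at 24 h had 17.99, 19.3, 18.01 and 16.5 CPM and mice at 72 h 19.6, 18.6, 19.4 and 17.0 CPM. Every mouse of both groups was above every control, by log2 changes of 0.41 ± 0.09 (adjusted p = 0.00247) and 0.47 ± 0.10 (adjusted p = 0.000874). As for Trim14, no class passed the test at 72 h, and the largest class value was in LMPP-like cells (log2 0.65 ± 0.21, adjusted p = 0.0763).

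Trim21 is a cytosolic receptor for antibody that marks antibody-coated viruses for degradation. It had 8.50, 7.72, 9.47 and 10.4 CPM in control mice and 26.5, 26.6, 31.7 and 25.6 CPM at 3 h, without overlap and with a log2 change of 1.69 ± 0.10 (3.23-fold; adjusted p = 3.44e-12). The share of its rise left at 24 h was 2.49%, about that of Trim30d (2.52%). The levels of 10.3, 9.66, 8.40 and 9.63 CPM at 24 h and 8.19, 8.30, 6.70 and 7.29 CPM at 72 h overlapped the controls. Neither passed the test (log2 0.14 ± 0.10, adjusted p = 0.314, and -0.18 ± 0.11, adjusted p = 0.209).

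Trim12a and Trim12c are mouse relatives of the retroviral restriction factor TRIM5. Trim12a had 24.6, 24.5, 23.8 and 20.0 CPM in control mice and 134, 132, 143 and 116 CPM at 3 h (log2 2.45 ± 0.07, adjusted p = 3.36e-18). Trim12c had 27.6, 26.8, 23.9 and 22.6 CPM in control mice and 168, 167, 165 and 144 CPM at 3 h (log2 2.63 ± 0.07, adjusted p = 3.28e-19). The fitted rises were 5.45-fold and 6.21-fold, and every mouse at 3 h was far above the controls. At 24 h Trim12a had 32.7, 36.4, 34.9 and 34.8 CPM (log2 0.53 ± 0.07, adjusted p = 6.96e-06) and Trim12c 40.0, 46.5, 44.4 and 40.5 CPM (log2 0.73 ± 0.07, adjusted p = 2.69e-08), again without overlap with control. At 72 h the ranges of 25.8 to 31.6 CPM for Trim12a and 28.2 to 29.8 CPM for Trim12c were narrowly above the controls. The log2 change at 72 h was 0.24 ± 0.07 for Trim12a (edgeR adjusted p = 0.0147) and 0.16 ± 0.07 for Trim12c (edgeR adjusted p = 0.084), so the latter did not pass the test. For Trim12a, the share of the 3 h rise left at 72 h was 1.21% in HSC-like and -8.97% in LMPP-like cells. It was 17.3%, -1.12% and -0.58% in the myeloid, erythroid and MK progenitor-like classes. For Trim12c these shares were -1.29%, -4.29%, 3.62%, 5.25% and -3.74% in the same order. A negative share is a mean below control. The HSC-like class made up a larger share of cells at 72 h than in control, and its part was not tested.

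Trim30a, which is known to restrain Toll-like receptor signalling by promoting the loss of TAB2 and TAB3, rose by the second-largest fold of the 9. Control mice had 36.7, 36.7, 37.9 and 34.8 CPM, and mice at 3 h had 415, 431, 405 and 387 CPM. The log2 change was 3.47 ± 0.06 (11.1-fold; adjusted p = 1.87e-22). At 24 h the mice had 60.96, 64.3, 56.1 and 66.2 CPM, all above control (log2 0.75 ± 0.06, adjusted p = 1.31e-09), although only 6.80% of the rise was left. At 72 h they had 38.4, 36.8, 34.8 and 32.9 CPM, which overlaps control (log2 -0.05 ± 0.06, adjusted p = 0.566).

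Trim30d, a paralogue of Trim30a, changed more in fold than any other member. It had 7.82, 6.70, 6.86 and 9.57 CPM in control mice and 109, 113, 114 and 106 CPM at 3 h (log2 3.94 ± 0.09, adjusted p = 3.97e-20). By 24 h the level had fallen to 8.45, 11.4, 10.4 and 11.1 CPM, which overlaps control, although the fit gave a log2 change of 0.54 ± 0.10 (adjusted p = 0.000338). Between 3 and 24 h it fell 10.5-fold (log2 -3.40 ± 0.08, adjusted p = 1.97e-19). At 72 h it had 9.0004, 7.07, 7.86 and 9.33 CPM (log2 0.22 ± 0.11, adjusted p = 0.139).

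Trim34a, the mouse counterpart of TRIM34, stands at the other end of the cluster on the opposite strand. It had 8.19, 7.15, 8.72 and 9.57 CPM in control mice and 84.4, 86.6, 81.4 and 65.2 CPM at 3 h, without overlap (log2 3.29 ± 0.10, 9.81-fold, adjusted p = 1.29e-17). At 24 h it had 13.7, 16.6, 14.2 and 16.4 CPM, also without overlap, with a log2 change of 0.93 ± 0.11 (adjusted p = 8.78e-07) that was the highest of the 9 at that time. At 72 h it had 11.1, 9.54, 8.94 and 9.72 CPM and did not pass the test (log2 0.29 ± 0.12, adjusted p = 0.0656).

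Over the time course, the counts of TRIM genes that stayed changed dropped from 9 to none by the fold threshold. At 24 h none of the 9 was called by edgeR's quasi-likelihood test, DESeq2 or edgeR's likelihood ratio test, where 2.22% of all genes were called in either direction. Without the fold threshold, 8 of the 9 were higher at 24 h with an adjusted p under 0.05 (the exception was Trim21), against 14.5% of all genes, and 8 had an unadjusted p under 0.05. The share of all genes with an unadjusted p under 0.05 is not given, so the counts by that limit have no background beside them. Every mouse at 24 h was above every control mouse for 7 of the 9, all but Trim21 and Trim30d, and for 12.7% of all genes. Against 3 h, 7 of the 9 were called lower at 24 h, where 2.93% of all genes were. The remaining 2 fell as well but by a log2 change under 1, Trim25 by 0.91 and Trim56 by 0.75. At 72 h none was called by the 3 tests (2.86% of all genes in either direction), and 6 had an unadjusted p under 0.05. By the adjusted p alone, 4 of the 9 differed from control at 72 h, Trim14, Trim56 and Trim12a being higher and Trim25 lower, against 37.4% of all genes in either direction. A share of 4 in 9 is near that background. For 4 of the 9, Trim14, Trim56, Trim12a and Trim12c, every mouse at 72 h was above every control mouse, as for 15.2% of all genes. Within classes, the means of Trim12a and Trim12c at 72 h were above control in some classes and below it in others.

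The change at 3 h was present in every cell class examined. The classes were clusters of control cells named from marker genes, HSC-like, LMPP-like (lymphoid-primed multipotent progenitors), myeloid progenitor-like, erythroid progenitor-like and megakaryocyte (MK) progenitor-like, to which treated cells were assigned by their nearest matched neighbours. Clusters 7, 9, 13, 14 and 15, with 165, 139, 63, 35 and 18 control cells, entered none of these classes. Their cells count only in the values over all kept cells. Isg15 was among the leading genes of 1 LMPP-like cluster, cluster 11. Cluster 11 was 26.95% of LMPP-like cells in control and 15.9%, 13.1% and 11.7% at 3, 24 and 72 h. Of the 45 pairs of gene and class, 40 were called higher at 3 h, 8 in each class. The share of all genes called higher was 4.25% in HSC-like, 3.45% in LMPP-like, 3.41% in myeloid progenitor-like, 4.12% in erythroid progenitor-like and 3.58% in MK progenitor-like cells. The 5 pairs not called had an adjusted p under 0.05 and a log2 change under 1. They were Trim56 in HSC-like (0.80 ± 0.18), myeloid progenitor-like (0.87 ± 0.23) and MK progenitor-like cells (0.72 ± 0.24) and Trim25 in LMPP-like (0.72 ± 0.16) and erythroid progenitor-like cells (0.88 ± 0.19). The median log2 change of the 9 genes was 2.24 in HSC-like, 1.89 in LMPP-like, 1.77 in myeloid progenitor-like, 2.71 in erythroid progenitor-like and 2.27 in MK progenitor-like cells. Control mouse 4 had too few cells for the LMPP-, erythroid progenitor- and MK progenitor-like classes (under 10) and was left out of them. The clusters that make up the myeloid class differed between groups, with cluster 6, led by S100a8 and S100a9, at 26.1% of the class in control and 6.95% at 3 h, and cluster 5, led by F13a1, at 35.03% and 58.3%.

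**Figure D2:**
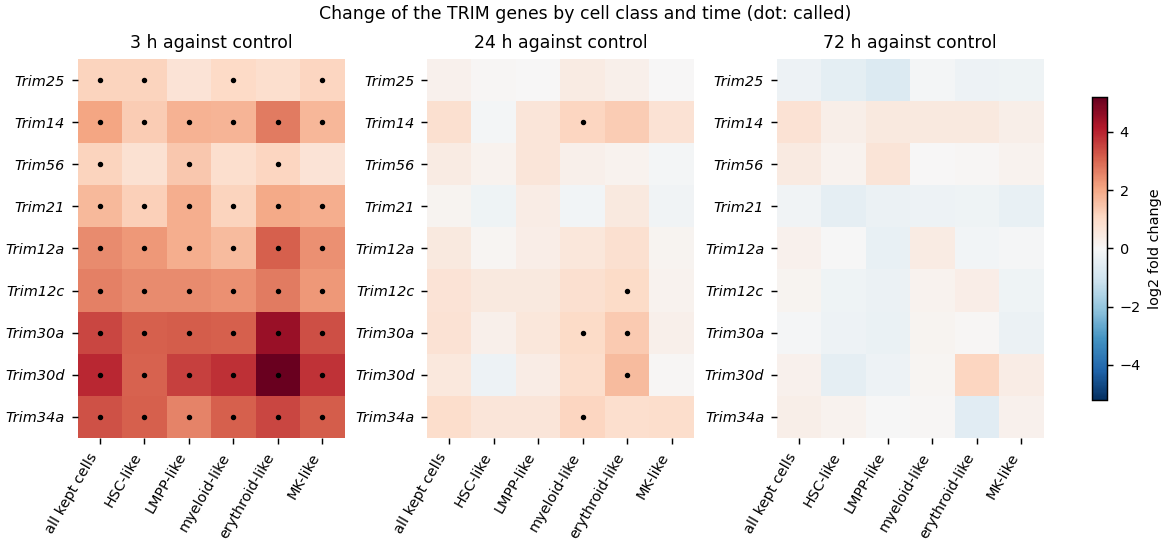
Log2 fold change against control of each TRIM gene (vertical axis) over all kept cells and in the 5 cell classes (horizontal axis) at 3, 24 and 72 h, with red for higher and blue for lower. A dot marks a called change, and dots cover 40 of the 45 pairs of gene and class at 3 h, 6 at 24 h and none at 72 h.

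HSC-like cells had the highest mean level of the 5 classes for all 9 TRIM genes in each of the 4 groups, as for 33.8%, 35.0%, 36.3% and 34.3% of the 7828 genes tested in every class in control and at 3, 24 and 72 h. Levels were not tested between classes, and cells differed in depth, with a median of 11126 UMIs in HSC-like and 33852 in myeloid progenitor-like control cells. In control mice, every HSC-like value lay above every value of the other classes for 3 of the 9 genes, Trim12a, Trim30d and Trim34a (6.77% of all genes). At 3 h this held for the 5 genes of the chromosome 7 cluster (5.60% of all genes), and at 24 and 72 h for 6 genes each (10.0% and 6.95% of all genes). Trim30a in HSC-like cells had 64.8, 67.2, 76.6 and 22.9 CPM in control mice, the lowest being control mouse 4 with few cells, and 596, 605, 577 and 583 CPM at 3 h. In LMPP-like cells it had 35.6, 43.6 and 50.2 CPM in control and 383, 384, 354 and 399 CPM at 3 h. In MK progenitor-like cells its mean went from 39.8 ± 6.29 CPM (SD, n = 3) to 417 ± 67.7 CPM (n = 4), and in myeloid progenitor-like cells from 29.5 ± 5.39 CPM to 278 ± 30.1 CPM (n = 4 each). At 3 h the ranges of the LMPP-like, MK progenitor-like and erythroid progenitor-like classes overlapped, and those of HSC-like cells lay above and of myeloid progenitor-like cells below them.

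**Figure D3:**
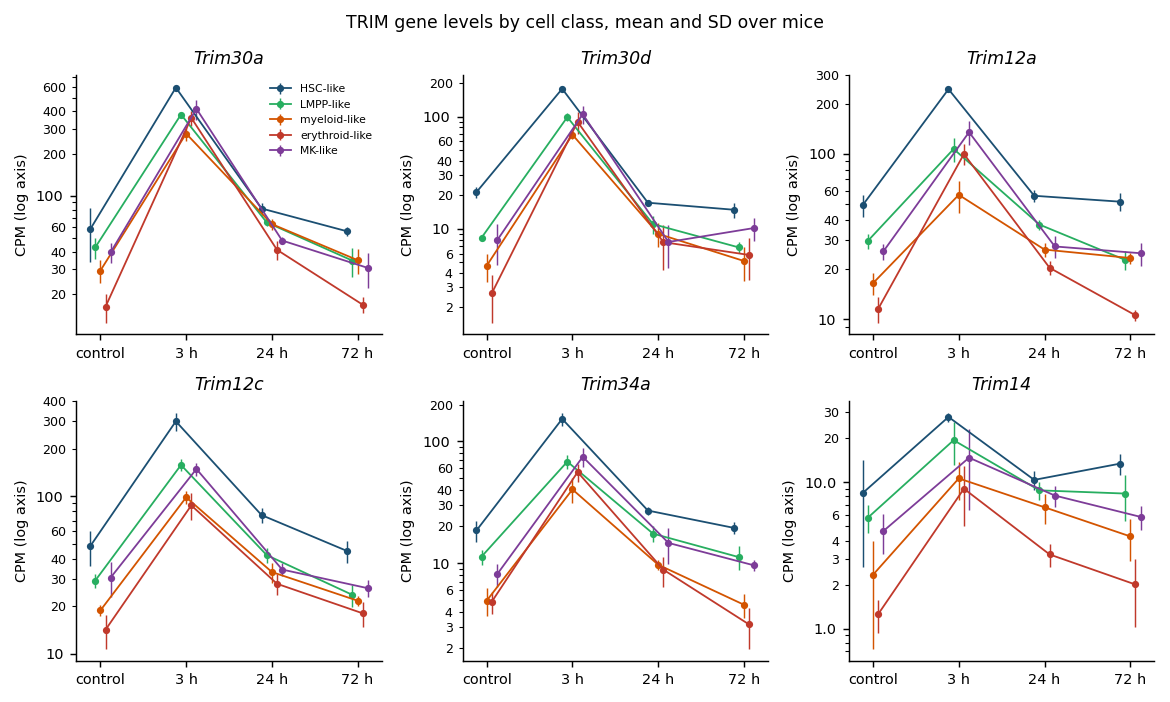
Mean level (CPM, log axis) of 6 TRIM genes by group in each of the 5 cell classes, with bars for the SD over mice. HSC-like cells are highest at each time point, and the erythroid progenitor-like class starts from the lowest control mean and comes within the range of the other classes at 3 h for Trim30a and Trim30d.

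For Trim30a, Trim30d and Trim12a, erythroid progenitor-like cells had the lowest control mean of the 5 classes and the largest log2 change at 3 h, which was not so for Trim25 and Trim56. Trim30a there had 17.0, 19.7 and 12.3 CPM in control mice and 327, 371, 324 and 417 CPM at 3 h, a log2 change of 4.47 ± 0.14, against 3.11 ± 0.09 in HSC-like cells. The difference between the 2 changes, tested within mice, was 1.33 ± 0.19 on the log2 scale (edgeR's quasi-likelihood test, adjusted p = 1.1e-06). Trim30d had 2.27, 4.03 and 1.70 CPM in control and 61.8, 89.3, 106 and 102 CPM at 3 h, where its log2 change of 5.12 ± 0.29 exceeded that in HSC-like cells (3.08 ± 0.12) by 2.003 ± 0.37 (adjusted p = 0.000177). In HSC-like cells Trim30d went from 18.4, 20.2, 23.2 and 22.9 CPM to 184, 185, 168 and 169 CPM, so the larger fold in erythroid progenitor-like cells came with a lower level at both times. The control levels of Trim30d in erythroid progenitor-like cells rest on few UMIs. The class held 2482604, 2103234 and 2830350 UMIs of all genes in those control mice, and each mouse at 3 h had 15 to 41 cells of it. Trim12a had 10.2, 13.9 and 10.6 CPM in erythroid progenitor-like cells of control mice and 103, 79.9, 114 and 102 CPM at 3 h, and its change exceeded that of HSC-like cells by 0.85 ± 0.21 (adjusted p = 0.00972). For Trim14, Trim21, Trim12c and Trim34a the signed difference from HSC-like cells at 3 h was also highest in the erythroid class, but none passed. The differences were 1.39, 0.68, 0.18 and 0.27 in that order (edgeR's quasi-likelihood test, adjusted p = 0.209, 0.311, 0.79 and 0.764). For Trim34a the difference largest in size was negative, -0.56 in the LMPP-like class (edgeR's quasi-likelihood test, adjusted p = 0.515). In myeloid progenitor-like cells Trim12a rose less than in HSC-like cells, from 18.7, 17.98, 16.4 and 12.9 CPM to 62.0, 71.2, 45.2 and 47.5 CPM, with a difference of -0.59 ± 0.16 (adjusted p = 0.0244, and 0.0546 with library size alone as the scaling). The erythroid class was 62.0% cluster 8 in control and 72.7% at 3 h, and the part of this shift, and of the myeloid shift above, was not tested.

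At 24 h, 6 of the 45 pairs of gene and class were called, all higher and all in myeloid and erythroid progenitor-like cells. In myeloid progenitor-like cells they were Trim14 (log2 1.11 ± 0.23, adjusted p = 0.000584), Trim30a (1.00 ± 0.09, adjusted p = 3.03e-10) and Trim34a (1.12 ± 0.18, adjusted p = 1.79e-05). In erythroid progenitor-like cells they were Trim12c (1.01 ± 0.18, adjusted p = 0.000259), Trim30a (1.36 ± 0.16, adjusted p = 3.7e-07) and Trim30d (1.63 ± 0.38, adjusted p = 0.00461). Of all genes, 1.14% were called higher in the myeloid class and 1.35% in the erythroid class, and 0.717%, 0.753% and 0.476% in the HSC-, LMPP- and MK progenitor-like classes, where no TRIM gene was called by edgeR's quasi-likelihood test, DESeq2 or the likelihood ratio test. In those 3 classes 3, 6 and 1 of the 9 genes had an unadjusted p under 0.05, for which the share of all genes is not given. Without 24 h mouse 4 the 6 calls became 3, Trim14 and Trim34a in the myeloid and Trim30a in the erythroid class. Trim30a in the myeloid class fell below the fold threshold with library size alone (0.958), without a filter on low counts (0.997) and with the replicate block (0.993), and Trim12c in the erythroid class with library size alone (0.975) and the block (0.954).

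The persistence at 24 h differed from that of HSC-like cells for some genes when the difference itself was tested. In HSC-like cells Trim30a had 84.6, 90.1, 71.9 and 79.3 CPM at 24 h, which its log2 change of 0.27 ± 0.10 (adjusted p = 0.14) did not separate from control. In myeloid progenitor-like cells it had 33.3, 30.8, 32.2 and 21.5 CPM in control and 59.4, 64.8, 57.6 and 70.6 CPM at 24 h. The difference of the changes was 0.73 ± 0.14 (adjusted p = 0.000671) for the myeloid and 1.10 ± 0.21 (adjusted p = 0.000394) for the erythroid class. Trim30d differed from HSC-like cells by 1.19 ± 0.27 in the myeloid class (adjusted p = 0.00515) and 1.90 ± 0.41 in the erythroid class (adjusted p = 0.00217), its HSC-like values at 24 h (15.9 to 17.6 CPM) lying below every control value. Trim14 differed in the myeloid class by 1.21 ± 0.32 (adjusted p = 0.0230), and Trim12a in the erythroid class by 0.73 ± 0.22 (adjusted p = 0.0408). The last did not pass without a filter on low counts (adjusted p = 0.104) or with labels transferred without interferon-response genes (adjusted p = 0.0664). The makeup of these classes also differed at 24 h. In the myeloid class cluster 6 was 26.1% in control and 9.04% at 24 h, and cluster 5 was 35.03% and 56.7%. Cluster 8 was 62.0% and 74.7% of the erythroid class, and cluster 2 was 68.9% and 72.9% of the HSC-like class. The part of these shifts in the calls and differences at 24 h was not tested.

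In all, 10 of 108 tests of a difference from HSC-like cells passed, 4 at 3 h and 6 at 24 h. Of all 10774 genes in that fit, at 3 h 0.418% passed for the LMPP-like, 2.74% for the myeloid progenitor-like, 2.86% for the erythroid progenitor-like and 0.0557% for the MK progenitor-like class. The shares were 0.0743%, 2.25%, 3.62% and 0% at 24 h, and 0.0186%, 0.241%, 0.102% and 0% at 72 h. No TRIM gene passed for the LMPP- or MK progenitor-like class or at 72 h, by edgeR's quasi-likelihood or likelihood ratio test. In the LMPP-like class 3, 3 and 0 of the 9 genes had an unadjusted p under 0.05 at 3, 24 and 72 h, and in the MK progenitor-like class 1 at each time. At 72 h the myeloid and erythroid classes had 3 and 2 such genes. For these counts by unadjusted p the share of all genes is not given. Without control mouse 3 only 4 of the 108 passed, Trim30a and Trim30d in the erythroid class at 3 h, Trim12a in the myeloid class at 3 h and Trim30a in the myeloid class at 24 h. With any single mouse left out, 3 of the 10 differences always held, Trim30a and Trim30d in the erythroid class at 3 h and Trim30a in the myeloid class at 24 h.

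At 72 h none of the 45 pairs was called by the 3 tests, and the share of all genes called in either direction was 0.757% in HSC-like, 0.753% in LMPP-like, 1.10% in myeloid progenitor-like, 0.807% in erythroid progenitor-like and 0.658% in MK progenitor-like cells. The number of the 9 genes with an unadjusted p under 0.05 was 4, 4, 1, 1 and 0 in the same order. For that limit the share of all genes is not given. By the adjusted p alone, Trim25 was lower in LMPP-like cells (20.2, 30.6 and 24.5 CPM in control against 14.96, 13.5, 18.2 and 14.9 CPM, log2 -0.69 ± 0.17, adjusted p = 0.00875). Trim12a was higher in myeloid progenitor-like cells (18.7, 17.98, 16.4 and 12.9 CPM against 22.4, 22.5, 26.2 and 22.6 CPM, log2 0.42 ± 0.13, adjusted p = 0.0279). In both cases the groups did not overlap, as for 1, 3, 1, 2 and 0 of the 9 genes in the classes as ordered above. The share of all genes by these 2 limits within classes is not given. Cluster 11 was 26.95% of LMPP-like cells in control and 11.7% at 72 h. In the myeloid class cluster 6 was 26.1% and 9.87%, and cluster 5 was 35.03% and 50.7%. The part of these shifts was not tested.

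The share of cells with a UMI of each gene was compared at equal depth. A cell without a UMI may still express the gene, the more so where its level is low, as for Trim14 (mean 4.06 CPM in control mice). Cells were thinned to 5000 UMIs each, which left out 35, 61, 35 and 68 cells of the control, 3, 24 and 72 h groups, since median depth was 18964.5, 12017, 18953.5 and 14763 UMIs. The share of cells with a UMI of Trim30a went from 17.7% of control cells to 84.2% at 3 h and was 26.6% and 18.3% at 24 and 72 h, as means of 4 mice, and without thinning the 4 shares were 46.0%, 97.7%, 64.5% and 41.5%. For Trim30d the thinned shares were 4.73%, 41.5%, 5.72% and 4.74%, and for Trim34a 4.77%, 33.6%, 8.97% and 6.06%. Trim25 went from 9.42% to 21.4% at 3 h, Trim21 from 5.06% to 15.02%, Trim56 from 7.01% to 12.9% and Trim14 from 2.94% to 8.74%. Without thinning these went from 33.7% to 45.0%, 17.0% to 29.8%, 22.3% to 29.9% and 8.43% to 20.2%, in the same order. Cells with UMIs of at least 3 of the 9 genes made up 6.25% of control cells, 64.5% at 3 h and 11.7% and 6.80% at 24 and 72 h (42.3%, 95.8%, 63.9% and 40.0% without thinning). That share at 3 h was 83.6% in HSC-like, 62.4% in LMPP-like, 33.9% in myeloid progenitor-like, 48.1% in erythroid progenitor-like and 67.1% in MK progenitor-like cells, from 12.9%, 6.22%, 1.68%, 1.84% and 3.77% in control. No class lacks these genes by their known biology, so the share that free RNA gives could not be measured.

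**Figure D4:**
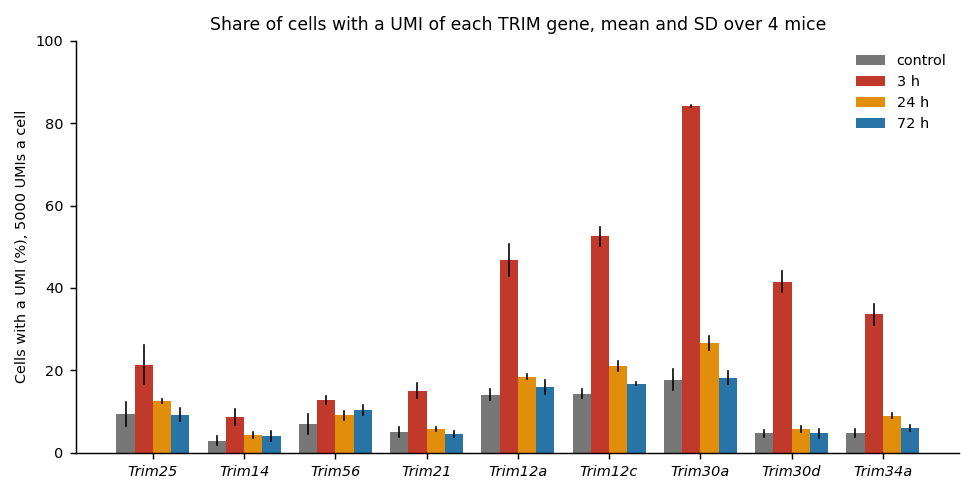
Share of cells (%, axis from 0) with at least 1 UMI of each TRIM gene after thinning to 5000 UMIs a cell, as mean and SD over 4 mice of each group. Trim30a reaches 84.2% of cells at 3 h, and at 72 h its share is 18.3%, against 17.7% in control.

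The genes whose levels over class and time were most like each TRIM gene were mostly other interferon-response genes. Likeness was the Pearson correlation of mean log2 CPM over 20 points (5 classes at 4 time points) among 7828 genes, given as a description, since the points share libraries, depth and mice. Trim30a was most like Sp100 (r = 0.988) and Trafd1 (0.985), Trim30d like Dtx3l (0.976), and Trim34a like Parp14 (0.986) and Slfn8 (0.984). Trim12a was most like Samhd1 (0.985) and Dtx3l (0.981), Trim12c like Dtx3l (0.986) and Slfn5 (0.981), and Trim21 like Tgtp1 (0.962) and Samhd1 (0.954). Trim25 was most like Helz2 and Rnf213 (both 0.967). Trim14 and Trim56 were most like genes that rose less at 3 h, Fam60a and Tle4 (both 0.954) for Trim14 and Etnk1 (0.946) and Dync1i2 (0.931) for Trim56. Fam60a, Tle4 and Dync1i2 had log2 changes of 0.79, 0.96 and 0.78 at 3 h and were not called. The 36 pairs among the 9 genes had r from 0.69 to 0.98, with a median of 0.91.

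Most other TRIM genes were not called. Of the other 62 family genes, 34 passed the filter on low counts, and 4 were called higher and 2 lower at 3 h, with a median log2 change of -0.08. Among all genes tested, 5.22% were called higher at 3 h. The genes that rose were Trim30c (from 0.675 ± 0.473 to 34.2 ± 4.62 CPM, log2 5.27 ± 0.18) and Trim30b (2.41 ± 0.812 to 19.1 ± 1.81 CPM, log2 3.19 ± 0.16), both within the chromosome 7 cluster, and Pml (20.9 ± 1.995 to 75.4 ± 10.3 CPM, log2 1.81 ± 0.08), which forms nuclear bodies, and Trim26 (log2 1.46 ± 0.10). The genes that fell were Trim10, an erythroid member of the family (1.67 to 0.141 CPM, log2 -3.27 ± 0.82, adjusted p = 0.00302), and Mefv, which encodes pyrin and is known from myeloid cells (7.94 to 3.25 CPM, log2 -1.14 ± 0.18, adjusted p = 2.08e-05). Myeloid progenitor-like cells made up 29.4% of cells in control and 15.6% at 3 h, and erythroid progenitor-like cells 9.26% and 6.62%. The part of these shifts in the falls of Trim10 and Mefv was not tested. At 24 h Trim30b (1.26) and Trim30c (1.69) were called higher and Trim10 (-1.40) and Trim2 (-1.05) lower, and at 72 h Mefv (-1.14) was called lower. In either direction, 2.22% of all genes were called at 24 h and 2.86% at 72 h. Of the cluster genes that share most sequence with Trim12c and Trim34a, named after their values were seen, Trim5 had a log2 change of 0.72 ± 0.15 at 3 h and Trim34b 7 UMIs in all.

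Of 18 listed genes of nucleic acid sensing, in which several TRIM proteins act, all were tested and 5 rose at 3 h, with a median log2 change of 0.11 over the list. The largest changes were those of Irf7, which drives interferon genes (log2 5.53 ± 0.14), and the RNA sensors Dhx58 (3.87 ± 0.08), Ddx58, the partner of Trim25 (3.82 ± 0.09), and Ifih1 (3.48 ± 0.06). The same 4 genes were the ones called at 24 h, at log2 3.07, 1.49, 1.06 and 1.03, and none of the list was called at 72 h. Of 10 genes of the receptor and ISGF3, 6 rose at 3 h (median 1.34), led by the feedback inhibitors Usp18 (5.57 ± 0.08) and Socs1 (2.97 ± 0.14) and by Stat2 (2.88 ± 0.12), a subunit of ISGF3. Only Usp18 (1.80 ± 0.09) was still called at 24 h. Of 12 ubiquitin and ISG15 genes, 5 rose at 3 h (median 0.24), led by Isg15, a ubiquitin-like modifier (6.11 ± 0.14), and the enzymes that attach it, Ube2l6 (3.37 ± 0.08), Herc6 (3.37 ± 0.08) and Uba7 (1.58 ± 0.09). Isg15 (1.96 ± 0.13) and Ube2l6 (1.13 ± 0.08) were called at 24 h, and no gene of either list was called at 72 h by edgeR's quasi-likelihood test.

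**Figure D5:**
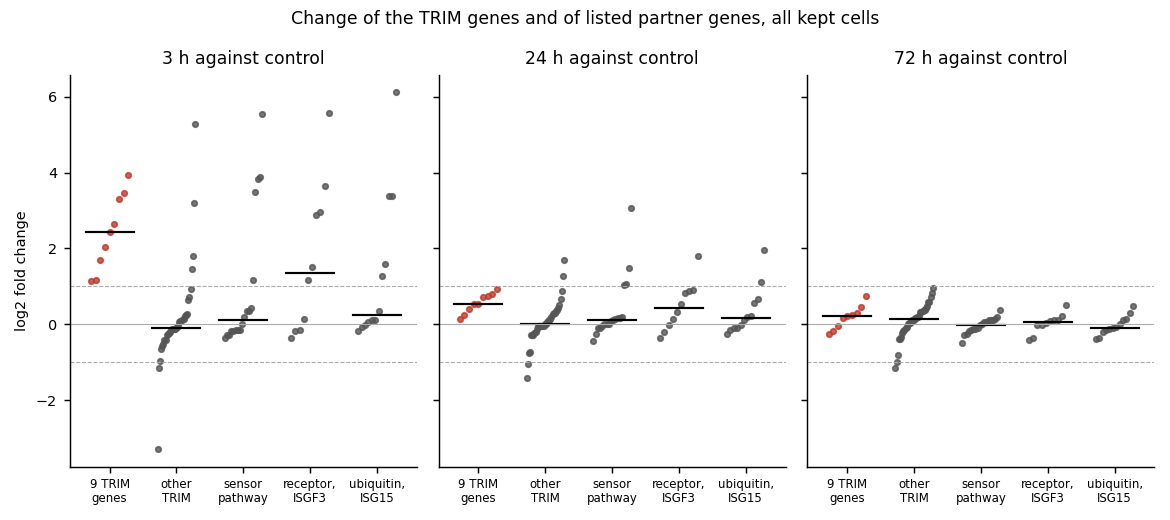
Log2 fold change against control over all kept cells for the 9 TRIM genes (red) and for the tested genes of the other lists (grey) at 3, 24 and 72 h, with a point for each gene, black bars for list medians and dashed lines at log2 changes of 1 and -1. The median of the 9 genes is 2.45 at 3 h, against -0.08 for the other TRIM genes. The 9 were chosen as interferon-responsive, so a gap of this kind was built into the choice.

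The 6 of 8 members with an ISRE-like match can be set beside all other genes, as a description with no test. Of the 9087 tested genes with a window, 3.90% held a match, and of the 410 called higher at 3 h in the whole compartment 20.2% did, 83 genes. Of the 143 called lower, 2.80% did. The 9 TRIM genes are themselves among those that rose. Trim25 and Trim56, the members with a window and no match, had the smallest log2 changes at 3 h, while Trim21, with overlapping matches, had the next smallest.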

How the data were processed

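LK cells with added HSCs from 16 mice were profiled with the 10x Genomics 3′ v3.1 kit in 4 libraries. The deposited tables hold UMI counts for each gene and barcode, not normalized, which the authors made (submitters' processing notes) with Cell Ranger 3.1.0 on mm10. Further deposited tables, from demultiplexing with Seurat, give each barcode's hashtag counts in total, a hashtag margin score and the hashtag, multiplet or negative call. Whether reads were counted by strand is not given in the sources used here.

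Barcodes with a single hashtag, at least 700 genes and at most 5% mitochondrial UMIs were kept. Doublets within a mouse could not be seen from hashtags and were not removed. Control cells were clustered with Scanpy 1.11.5 and leidenalg 0.10.2 (500 variable genes, 10 components, Leiden resolution 0.8, 15 clusters) and clusters named from marker lists. Treated cells took their class after mutual nearest neighbour correction on 3481 genes. Python 3.11.15, NumPy 2.4.6, pandas 2.3.3, SciPy 1.17.1, scikit-learn 1.9.0 and matplotlib 3.10.9 were used.

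UMIs of each mouse were summed, over the kept cells or by class with at least 10 cells of a mouse, and tested with edgeR 4.0.16 under R 4.3.3 (filterByExpr, TMM, quasi-likelihood F test, Benjamini-Hochberg over all genes tested). SEs are the log2 change divided by the square root of the F statistic. Differences between classes were tested as class by time point with the mouse as a block. The mouse is the replicate. Scripts were tested on simulated counts. Alternatives were DESeq2 1.42.0, edgeR's likelihood ratio test, library size alone, DESeq2's size-factor method, no filter on low counts, every barcode with a single hashtag, other label transfers, the hashtag number as a replicate block, leaving out each mouse, and, chosen after seeing the data, leaving out barcodes shared between libraries. Leaving these out changed no count of called TRIM genes over all kept cells.

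The 9 genes and the gene lists were chosen with earlier results of these data known. All 9 genes are described. Of each other list, the 4 genes with the largest change among those called at 3 h are named, of other TRIM genes all called at any time, and for each of the 9 the 2 genes most like it, except that 1 gene is not reported here.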

Additional observations from a re-analysis of the deposited data

Results flagged for a closer look

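Of 189 groups of 4 mice, 14 held a mouse far from the other 3, where chance gives about 1 group in 20. Over all kept cells these were Trim56 in control mouse 4 (8.70 CPM) and Trim12a in the same mouse (20.0 CPM), both lowest and resting on 10 and 23 UMIs, Trim21 in 3 h mouse 3 (31.7 CPM, highest) and Trim12c in 3 h mouse 4 (144 CPM, lowest). In HSC-like cells they were Trim56 in 24 h mouse 3 (20.6 CPM) and Trim12a in 72 h mouse 4 (42.0 CPM), both lowest. In LMPP-like cells Trim56 was highest in 3 h mouse 2 (42.5 CPM). In myeloid progenitor-like cells they were Trim21 in control mouse 4 (15.1 CPM from 7 UMIs, highest), Trim12a in 72 h mouse 3 (26.2 CPM, highest) and Trim34a in 72 h mouse 4 (2.99 CPM, lowest). In erythroid progenitor-like cells they were Trim25 in 24 h mouse 1 (22.9 CPM, lowest) and Trim30d in 72 h mouse 4 (9.39 CPM from 10 UMIs, highest). In MK progenitor-like cells they were Trim25 in 3 h mouse 2 (74.7 CPM) and Trim30d in 3 h mouse 3 (133 CPM), both highest.

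The change differed from that of HSC-like cells, by the test of the difference within mice, in 10 cases. In erythroid progenitor-like cells the log2 differences at 3 h were 0.85 for Trim12a, 1.33 for Trim30a and 2.003 for Trim30d, and at 24 h 0.73, 1.10 and 1.90 for the same genes. In myeloid progenitor-like cells they were -0.59 for Trim12a at 3 h, and 1.21 for Trim14, 0.73 for Trim30a and 1.19 for Trim30d at 24 h.

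Barcodes without a hashtag call entered no comparison, and their CPM are plain shares of all UMIs, without TMM scaling. At 3 h, 11 such barcodes passed the limits on genes and mitochondrial UMIs and held 30 UMIs of Trim30a among 79898, or 375 CPM, against 33.9 CPM in the 43 such barcodes of the control library.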

How the results depend on the processing

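All 9 TRIM genes stayed higher with an adjusted p under 0.05 at 3 h over all kept cells under each alternative run, and with each mouse left out all 9 were called at 3 h, none at 24 or 72 h, and 7 were called lower at 24 h against 3 h. With library size alone as the scaling, 8 of 9 were called, since the log2 change of Trim25 was then 0.999902. With that scaling the median log2 change of all genes at 3 h was -0.175, against -0.03, and it gave 529 genes higher and 302 lower in place of 629 and 202. Among the other 62 TRIM genes, DESeq2 called 2 at 24 h in place of 4, and the fit with the hashtag number as a replicate block called 2 at 72 h in place of 1. Deviations of mice with the same hashtag number in different groups had correlations of -0.064 to 0.111 over 24 pairs. Their mean was 0.025, against -0.008 for mice of different numbers, and 8 of 16 mice were closest to their own number. Whether the numbers pair the mice was not tested beyond these values. A paired fit of the class differences was not made, since the mouse is already a block there. DESeq2 was not run for those differences.

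With each mouse left out in turn, the pairs of gene and class called ranged from 38 to 40 at 3 h and from 3 to 8 at 24 h, and the differences from HSC-like cells from 4 to 10. Calls among other TRIM genes ranged from 6 to 7 at 3 h, 2 to 4 at 24 h and 1 to 3 at 72 h. Of the single values, 12 changed sign under an alternative, all of them small and none called. With library size alone these were Trim25 at 24 h in LMPP-like (-0.016) and MK progenitor-like cells (-0.032), Trim56 (-0.012) and Trim34a (-0.00033) in myeloid progenitor-like cells at 72 h and Trim30a in erythroid progenitor-like cells at 72 h (-0.021). With the replicate block they were Trim30a in erythroid progenitor-like cells at 72 h (-0.0030) and Trim30d in MK progenitor-like cells at 24 h (-0.014). With labels transferred without correction they were Trim25 at 24 h in LMPP-like (-0.014) and MK progenitor-like cells (-0.015) and Trim34a in LMPP-like cells at 72 h (0.034), and without interferon-response genes Trim34a in LMPP-like cells at 72 h (0.0066) and Trim30d in MK progenitor-like cells at 24 h (-0.030). The causes were not tested.

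Leaving out a mouse changed the sign of values near 0, none of them called, over these ranges on the log2 scale. At 24 h they were -0.35 to 0.075 for Trim21 and -0.067 to 0.23 for Trim25 in HSC-like cells, -0.11 to 0.18 for Trim25 in LMPP-like cells, and -0.37 to 0.13 for Trim21, -0.18 to 0.36 for Trim30d and -0.095 to 0.077 for Trim25 in MK progenitor-like cells. At 72 h they were -0.066 to 0.061 for Trim12a in HSC-like cells and -0.13 to 0.15 for Trim34a in LMPP-like cells. In myeloid progenitor-like cells at 72 h they were -0.037 to 0.13 for Trim56, -0.073 to 0.24 for Trim34a and -0.17 to 0.40 for Trim30d. In erythroid progenitor-like cells at 72 h they were -0.076 to 0.27 for Trim56, -0.20 to 0.0095 for Trim12a and -0.13 to 0.19 for Trim30a, and in MK progenitor-like cells -0.14 to 0.030 for Trim12a. Depth limits what the class values can show, since control mouse 4 holds 4 to 40 UMIs of each gene in all.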
